A study of Mus musculus with 20 samples.

Results

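Immediate early response genes are the genes a cell transcribes first after a stimulus, without needing new protein. Of these, 10 were followed here in the mouse colon: Fos, Fosb, Jun, Junb, Egr1, Atf3, Ier2, Ier3, Dusp1 and Zfp36. The set was given by gene name, and each gene was represented by 1 probe set. All 10 passed the filter on dim probe sets and were among 16739 tested genes of 21423 named genes on the array. The question was how far their levels followed colitis and its treatments, and how far they varied between mice of 1 group, whose tissue handling the labels do not record mouse by mouse.

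Total RNA of the middle part of the colon was hybridised to 20 Affymetrix arrays, 1 per mouse, with 4 mice in each of 5 groups. All mice were female C57BL/6JOlaHsd animals of about 11 weeks. Cyclosporine colitis mice drank 3% dextran sulphate sodium (DSS), which injures the colonic epithelium, for 5 days and were given cyclosporine, a calcineurin inhibitor, by mouth in methocel, 25 mg/kg each day between days 1 and 15. Probiotic colitis mice received the strains L930BB and IM386 by intragastric tube before and during the same DSS course. Untreated colitis mice had DSS without strains or cyclosporine, and probiotic healthy mice had the 2 strains without DSS. Untreated healthy mice had no DSS, strains or cyclosporine. The sample titles give the treatment of untreated mice as none, while the comparisons set for this series name them saline-treated. No group of healthy mice with cyclosporine and none with methocel alone was named in the labels. Mice were housed 5 per cage, and the cage of each mouse was not given. They were euthanised with CO2, and each colon was measured and divided before the tissue was snap-frozen. The labels do not give the day of tissue collection, and the time between death and freezing was not given in the sources used here. Mice are numbered below as in the labels.

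The median log2 value of an array was 6.22 to 6.29, pairs of arrays correlated at 0.965 to 0.994, and 0 pairs were identical. All 10 epithelial and all 14 smooth muscle markers on the lists used passed the filter. Earlier results of these data had shown 3 arrays to stand apart from their groups: probiotic colitis mouse 8, untreated colitis mouse 6 and, among healthy mice, untreated mouse 2. Probiotic colitis mouse 8 had the lowest mean of 15 acute cytokine genes in its group (6.99, against 7.98 to 8.82 in the other 3 mice), and untreated colitis mouse 6 the lowest in its own (6.58, against 7.32 to 9.16). For many of the comparisons and similarities that rest on probiotic colitis mouse 8, values without it are given beside them. In whole tissue, fewer cells of a type and less RNA per cell cannot be told apart.

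Fos, Fosb, Jun and Junb are subunits of the AP-1 transcription factor, which binds DNA as a dimer. Egr1 is a zinc finger transcription factor and Atf3 a stress-induced factor of the ATF/CREB family. Ier2 encodes a small nuclear protein, and Ier3 a protein linked to cell survival and NF-kappaB signalling. Dusp1 encodes a phosphatase that inactivates MAP kinases, and Zfp36 encodes tristetraprolin, which destabilises cytokine mRNAs. Transcription of these genes starts through factors already present in the cell, such as serum response factor at the CArG box and CREB at the cAMP response element. Many of their mRNAs decay quickly, and dissection of tissue is known to induce some of these genes.

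The promoters show which of these elements lie close to the start of each gene. RefSeq sequence of the build GRCm38.p6 was matched for 8 of the 10 genes, and the 250 bases before the start were searched on both strands. Egr1 and Ier2 had no sequence to match and were not searched for any element. The 7 stretches below are shown because they hold an element that CREB or serum response factor is known to bind, and capitals mark the element. A further TGACG of Dusp1, 191 to 187 bases before the start, is not printed. The letters TGACG, the core of the cAMP response element, were found in the promoters of 5 of 8 genes and in 17.8% of 32851 promoters, and the full element TGACGTCA, which contains the core on both strands, was found in that of Dusp1 and in 1.55% of all promoters. The CArG box was found in that of Zfp36 and in 1.47% of all promoters.
Fos, 129 to 125 bases before the start: ggggcgtagagtTGACGacagagcgcccg
Fos, 66 to 62 bases before the start: agttccgcccagTGACGtaggaagtccat
Fosb, 60 to 56 bases before the start: tggagttgcgggTGACGcaagcgcggggg
Junb, 106 to 102 bases before the start: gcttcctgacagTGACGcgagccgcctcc
Atf3, 7 to 3 bases before the start, with the core on the opposite strand: ttaatagcattaCGTCAgc
Dusp1, 143 to 136 bases before the start: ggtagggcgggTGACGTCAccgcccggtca
Zfp36, 58 to 49 bases before the start: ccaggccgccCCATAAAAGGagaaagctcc
The 2 stretches of Fos lie at chr12:85473749-85473777 and chr12:85473812-85473840 on the plus strand. Those on the minus strand lie at chr7:19310089-19310117 for Fosb, chr8:84978838-84978866 for Junb, chr1:191183334-191183352 for Atf3, chr17:26508597-26508626 for Dusp1 and chr7:28379267-28379296 for Zfp36. GGGCGG, the site known for SP1, was found in the promoters of 7 of 8 genes and in 32.7% of all promoters. GCGNGGGCG, the site known for EGR1, was found in those of Fosb and Zfp36 and in 4.70% of all promoters, TATAAA in that of Fos and in 12.4%, and the AP-1 site TGANTCA in 0 of 8 and in 6.75%. These are matches of letters within this window only.

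The 10 genes differed in whether any comparison between groups passed the test. Fos, Fosb, Egr1, Atf3 and Ier2 passed the test in none of the 8 comparisons. Jun, Ier3, Zfp36, Junb and Dusp1 carried every call. Jun was 1.29-fold and 1.50-fold higher in colitis than in healthy colon of the same treatment, without and with the probiotic. Ier3 was 2.25-fold higher in probiotic colitis than in probiotic healthy colon, and 1.94-fold lower in cyclosporine colitis than in probiotic colitis. All changes below are differences of log2 means with their standard errors, and adjusted p-values come from limma with Benjamini-Hochberg adjustment over all tested genes.

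**Figure D1:**
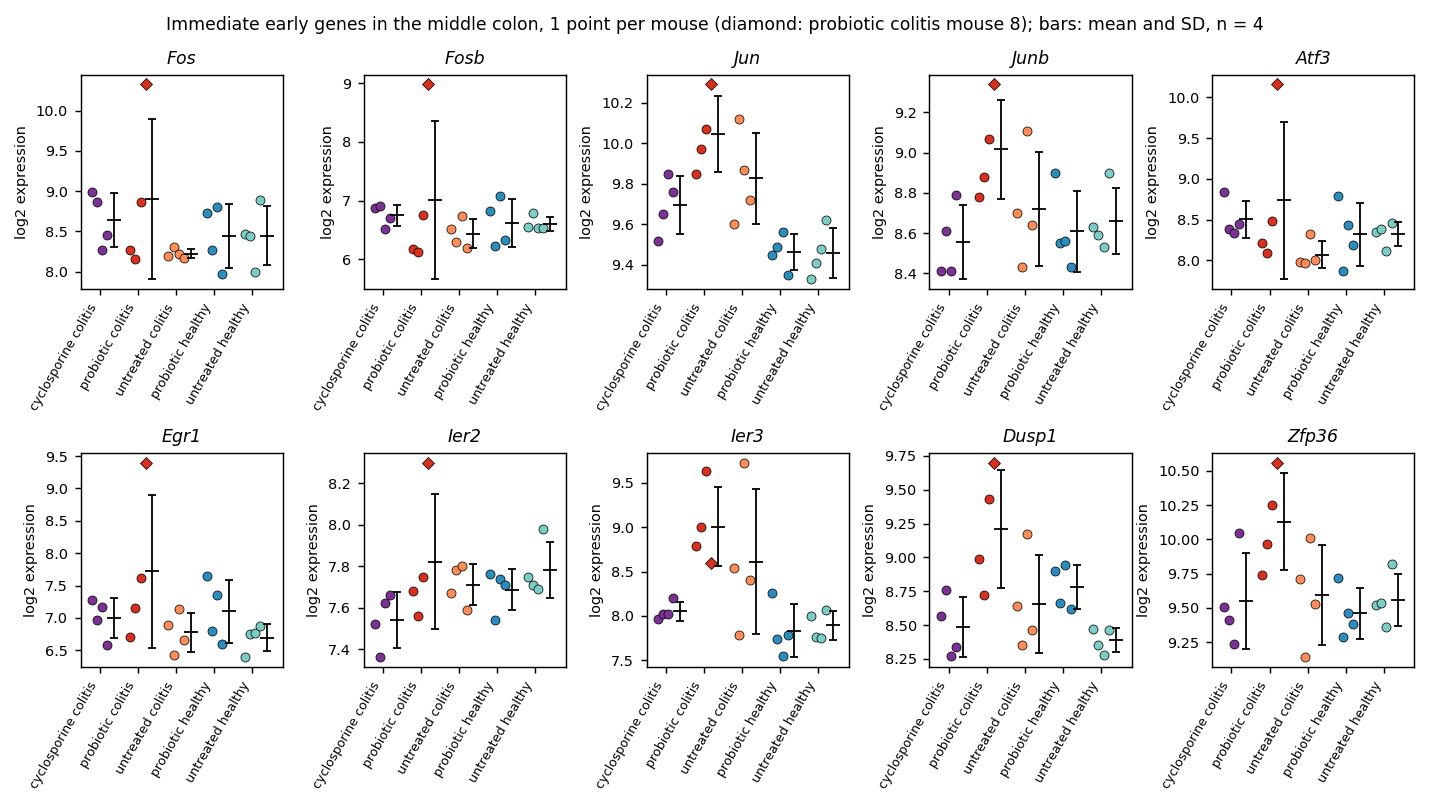
Deposited log2 expression of the 10 genes, 1 point per mouse in 5 groups, with the mean and SD of 4 mice beside the points; each gene has its own vertical scale. Probiotic colitis mouse 8 (diamond) is the highest point for 9 genes and not for Ier3, and Jun and Ier3 lie higher in probiotic colitis than in either healthy group.

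Fos had log2 values of 8.99, 8.86, 8.46 and 8.27 in cyclosporine colitis mice 4, 7, 10 and 9. In probiotic colitis it had 10.33 in mouse 8 and 8.86, 8.27 and 8.16 in mice 7, 3 and 5, against 8.30, 8.22, 8.19 and 8.17 in untreated colitis. In probiotic healthy mice it had 8.80, 8.73, 8.27 and 7.97, and in untreated healthy mice 8.89, 8.47, 8.44 and 7.99. The groups overlapped in every comparison, mouse 8 stood alone at the top, and the 4 untreated colitis mice lay closest together (SD 0.06, n = 4). In untreated colitis over untreated healthy colon Fos had a change of -0.23 ± 0.33 (adjusted p = 0.676), with a 95% confidence interval from -0.93 to 0.47.

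Fosb had 8.98 in probiotic colitis mouse 8 and 6.13, 6.17 and 6.75 in mice 5, 3 and 7 of the group, against 6.19 to 6.74 in untreated colitis. It had 6.51 to 6.90 in cyclosporine colitis, 6.23 to 7.08 in probiotic healthy and 6.53 to 6.79 in untreated healthy mice. Outside mouse 8 no array exceeded 7.08, and every pair of groups overlapped. Fosb changed by 0.39 ± 0.41 in probiotic colitis over probiotic healthy colon (adjusted p = 0.521).

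Egr1 followed the same array: 9.40 in probiotic colitis mouse 8 and 7.62, 7.15 and 6.70 in mice 7, 5 and 3, against 7.13, 6.89, 6.66 and 6.42 in untreated colitis. Its values were 6.58 to 7.28 in cyclosporine colitis, 6.59 to 7.65 in probiotic healthy and 6.39 to 6.87 in untreated healthy mice. Egr1 had the widest difference of the 10 genes between probiotic and untreated colitis, 0.94 ± 0.39, and it did not pass (adjusted p = 0.200). Without mouse 8 the difference was 0.38 (adjusted p = 0.411).

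Atf3 had 10.16 in probiotic colitis mouse 8 and 8.48, 8.21 and 8.09 in mice 7, 3 and 5, against 8.32, 8.01, 7.98 and 7.97 in untreated colitis. In cyclosporine colitis it had 8.84, 8.45, 8.38 and 8.34, all above untreated colitis. This was the 1 gene of the 10 whose groups did not overlap in that comparison, as 15.0% of tested genes did not. The change was 0.43 ± 0.31 and did not pass (adjusted p = 0.390). In healthy colon Atf3 had 7.87 to 8.79 with the probiotic and 8.11 to 8.46 without it.

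Ier2 had the narrowest range of the genes that never passed. Its means were 7.54 ± 0.13 in cyclosporine colitis, 7.82 ± 0.33 in probiotic colitis, 7.71 ± 0.10 in untreated colitis, 7.69 ± 0.10 in probiotic healthy and 7.78 ± 0.13 in untreated healthy mice (SD, n = 4 each). Mouse 8 held the highest value here too, 8.30. In cyclosporine colitis all 4 values, 7.36 to 7.66, lay below the untreated healthy ones, 7.69 to 7.98, as 14.7% of tested genes separated in either direction. The difference of -0.24 ± 0.12 did not pass (adjusted p = 0.221).

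Within groups, most of the 10 genes varied more between mice than most tested genes did. The SD of mice around their group means, pooled over the 5 groups, had a median of 0.37 over the 10 genes and of 0.14 over all tested genes, and 7 of the 10 exceeded the 90th percentile. Fosb had 0.65, Egr1 0.61, Fos 0.53 and Atf3 0.49, each higher than in at least 98.6% of tested genes. Ier3 had 0.45, Zfp36 0.30, Dusp1 0.28 and Junb 0.22. Ier2, at 0.18, and Jun, at 0.16, varied least of the 10 and lay above 75.4% and 66.0% of tested genes. Without probiotic colitis mouse 8 the median over the 10 genes was 0.26 and that over all tested genes 0.13, again with 7 above the 90th percentile.

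The genes deviated together in single mice. On 11 of 20 arrays at least 9 of the 10 genes lay on the same side of their group median: all 10 were above it in probiotic colitis mouse 7 and untreated colitis mouse 7, and 0 were above it in probiotic colitis mouse 3. The counts above the median were 0, 1, 10 and 9 in probiotic colitis mice 3, 5, 7 and 8, and 6, 3, 10 and 1 in untreated colitis mice 5, 6, 7 and 10. Healthy colon showed it as well, with 9, 1, 9 and 1 in probiotic healthy mice 4, 5, 6 and 7 and 6, 3, 2 and 9 in untreated healthy mice 2, 4, 6 and 7. The cyclosporine colitis mice 4, 7, 9 and 10 had 6, 5, 3 and 6, so that no array of that group was one-sided. Because the median splits each group evenly, the counts within a group depend on one another. A count of 10 did not always go with a large shift. The mean deviation of the 10 genes from their group means was 0.03 in probiotic colitis mouse 7 and 0.81 in mouse 8. The same count was 0 of 20 arrays for 12 heat shock chaperone genes, 0 for 16 hypoxia genes 4 for 15 acute cytokine genes, 9 for 14 smooth muscle markers and 8 for 8 fibroblast markers.

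**Figure D2:**
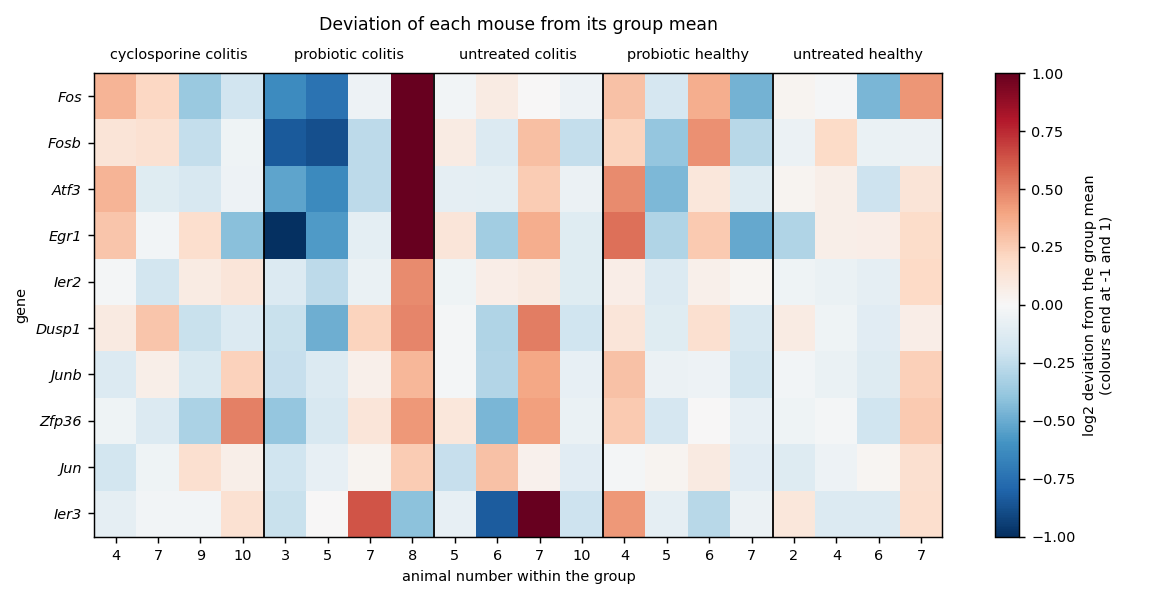
Deviation of each gene from its group mean in every mouse, in log2 units, with mice grouped by condition and colours ending at -1 and 1. Columns are often nearly of 1 colour from top to bottom, as in probiotic healthy mice 4 and 5 and in untreated colitis mouse 7, and in probiotic colitis mouse 8 Ier3 is the 1 row below its group mean.

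Over the 20 arrays, the deviations of the 45 pairs of the genes had a median Pearson r of 0.59, ranging from -0.18 to 0.94, and 31 pairs exceeded 0.5. Between one of the 10 and any other tested gene the median r was -0.01, and 4.03% of such pairs exceeded 0.5. Closest were Fosb and Atf3 (r = 0.94, Spearman's rho 0.86), Fosb and Egr1 (r = 0.91, rho 0.78) and Junb and Zfp36 (r = 0.91, rho 0.86). Ier3 had a median r of -0.00 with the other genes and Jun one of 0.38, against 0.58 to 0.74 for the other 8. Without mouse 8 the median over pairs was 0.50, and 22 pairs exceeded 0.5. The median for Ier3 was then 0.50 and that for Jun 0.03, so that the low value of Ier3 rested on that array. These are descriptions of arrays that share the extraction of one tissue piece each, with no test.

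Outside the set, the 10 genes whose deviations were most like the mean deviation of these genes over the 20 arrays were Ccn1 (r = 0.92), Nr4a1 (0.88), Mir27a (0.88), Tcim (0.87), Hbegf (0.86), Btg2 (0.84), Errfi1 (0.82), Car4 (0.81), Peg3 (0.81) and Sox9 (0.80). Ccn1 is a secreted matrix protein induced by growth factors, Nr4a1 an orphan nuclear receptor and Hbegf a ligand of the epidermal growth factor receptor. Without mouse 8 the values were 0.90 for Ccn1, 0.84 for Nr4a1 and between 0.44 and 0.74 for the other 8. Ccn1 averaged 8.84 ± 0.82 in probiotic colitis, 8.17 ± 0.35 in untreated colitis and 7.68 ± 0.15 in untreated healthy mice (SD, n = 4 each). Its change in untreated colitis over untreated healthy colon was 0.48 and did not pass in limma (adjusted p = 0.281). The probiotic colitis mean includes mouse 8.

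Untreated colitis was set against untreated healthy colon to read the effect of DSS alone. Jun rose, and none of the other 9 genes passed. Jun had 10.12, 9.87, 9.72 and 9.60 in untreated colitis mice 6, 7, 10 and 5, against 9.62, 9.48, 9.41 and 9.33 in untreated healthy mice 7, 6, 4 and 2. Only the lowest colitis value lay below the highest healthy one. The change was 0.37 ± 0.11 (adjusted p = 0.0179), or 1.29-fold. That is 1 of 10 genes, where 26.1% of all tested genes passed and 11.7% rose, so the share that rose was near that of all genes. The median change was 0.05, against -0.03 over all genes. The call rested on single mice: the change was 0.27 (adjusted p = 0.0642) without untreated colitis mouse 6 and 0.32 (adjusted p = 0.0536) without untreated healthy mouse 2. The groups overlapped for all 10 genes, where 24.6% of tested genes did not overlap.

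Ier3 had the largest change in this comparison, 0.72 ± 0.28, and missed the threshold (adjusted p = 0.0676). Its values were 9.73 in untreated colitis mouse 7, 8.54 and 8.40 in mice 5 and 10 and 7.78 in mouse 6, against 8.06 in untreated healthy mouse 7, 7.76 in mouse 4 and 7.75 in mouse 6, with mouse 2 between mice 7 and 4. Of the 4 colitis mice, 3 lay above all healthy mice, and mouse 6 lay among them. Without mouse 6 the change was 1.00 (adjusted p = 0.00837). Dusp1 changed by 0.27 ± 0.18 (adjusted p = 0.315), Junb by 0.06 ± 0.14 (adjusted p = 0.812) and Zfp36 by 0.04 ± 0.19 (adjusted p = 0.911), and for all 3 the highest colitis value was that of mouse 7.

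Probiotic colitis was set against probiotic healthy colon to read the same effect in mice given the strains. Jun, Ier3, Zfp36 and Junb rose, and all 10 changes were positive. Jun had 10.29, 10.07, 9.97 and 9.85 in probiotic colitis mice 8, 7, 5 and 3, against 9.56, 9.49, 9.45 and 9.35 in probiotic healthy mice. The groups did not overlap, and the change was 0.58 ± 0.11 (adjusted p = 0.000434). Ier3 had 9.63 in probiotic colitis mouse 7, 8.79 in mouse 3 and 8.60 in mouse 8, with mouse 5 between mice 7 and 3, against 8.26, 7.78, 7.74 and 7.55 in probiotic healthy mice. Again the groups were apart, with a change of 1.17 ± 0.28 (adjusted p = 0.00371), or 2.25-fold.

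Zfp36 had 10.56, 10.25, 9.97 and 9.74 in probiotic colitis mice 8, 7, 5 and 3, against 9.72, 9.46, 9.38 and 9.29 in probiotic healthy mice, which lay just below. The change was 0.67 ± 0.19 (adjusted p = 0.0126), or 1.59-fold. Junb had 9.34, 9.07, 8.88 and 8.78 in probiotic colitis, against 8.90, 8.56, 8.55 and 8.43 in probiotic healthy mice. These overlapped through probiotic healthy mouse 4, and the change was 0.41 ± 0.14 (adjusted p = 0.0387). Dusp1 had 9.70, 9.43, 8.99 and 8.72, against 8.94, 8.90, 8.66 and 8.62, and its change of 0.43 ± 0.18 did not pass (adjusted p = 0.0847).

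In this comparison 4 of 10 genes were called, where 29.7% of all tested genes passed and 13.6% rose. For 3 genes, Jun, Ier3 and Zfp36, the groups did not overlap, as for 31.1% of tested genes. The median change was 0.45, against -0.04 over all genes. Without probiotic colitis mouse 8, Jun, Ier3 and Zfp36 still passed, at 0.50, 1.31 and 0.53, and Junb did not (0.30, adjusted p = 0.130). Fos, Fosb, Atf3 and Ier2 then had changes of -0.01, -0.27, -0.06 and -0.02, against 0.46, 0.39, 0.42 and 0.14 with the mouse.

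**Figure D3:**
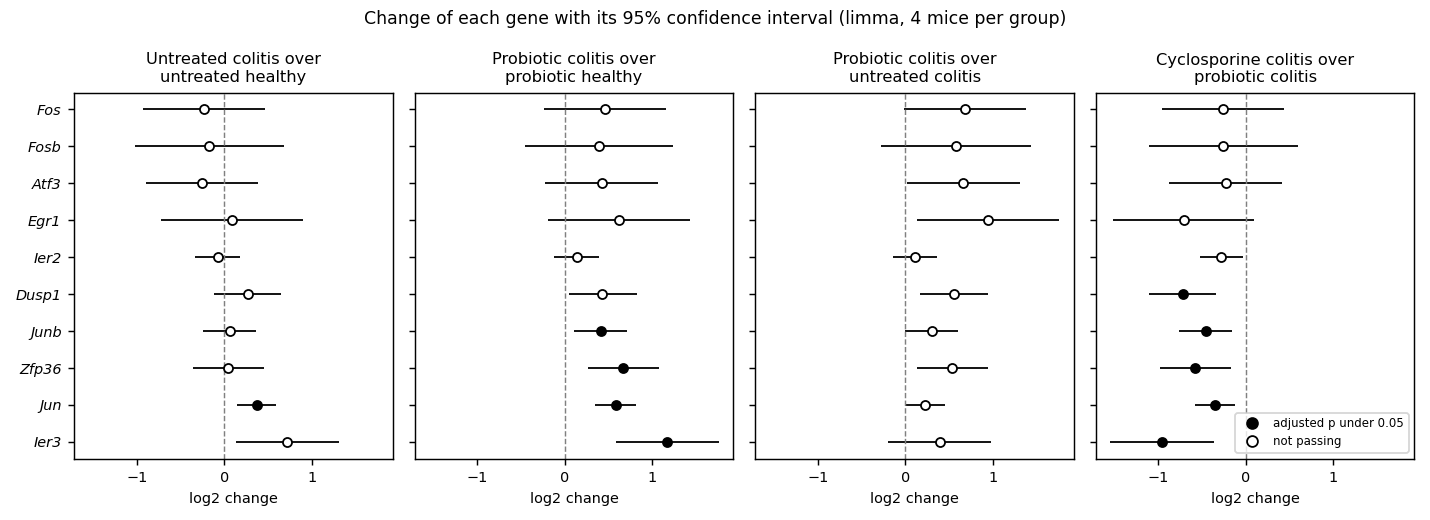
Log2 change of each gene with its 95% confidence interval in 4 comparisons, the first-named group over the second, from limma with 4 mice per group; filled points have an adjusted p under 0.05. The intervals of Fos, Fosb, Atf3 and Egr1 are the widest, and the filled points belong to Jun, Ier3, Zfp36, Junb and Dusp1.

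Whether the effect of DSS differed between probiotic and untreated mice was tested as an interaction. All 10 estimates were positive, with a median of 0.49, and 0 genes of the set and 0.00% of all tested genes passed. These estimates include probiotic colitis mouse 8, and none without it are given here. Without that mouse the probiotic colitis mean was lower for every gene of the set but Ier3. It was 8.43 for Fos, 6.35 for Fosb and 8.26 for Atf3, against 8.90, 7.01 and 8.73 with the mouse. For Fosb it then lay below the probiotic healthy mean of 6.62. The smallest adjusted p over all genes was 0.185, and 1446 genes, 1 of the set among them, had an unadjusted p under 0.05. That gene was Zfp36, at 0.63 ± 0.27 (adjusted p = 0.543).

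Probiotic colitis was set against untreated colitis to read the probiotic within colitis. All 10 genes had higher means in probiotic colitis, with a median difference of 0.54, and 0 passed in limma, where 2.80% of tested genes did and 2.13% rose. At an unadjusted p under 0.05 there were 4 of the set and 2984 of all 16739 tested genes. Dusp1 had 9.70, 9.43, 8.99 and 8.72 in probiotic colitis, against 9.17, 8.64, 8.46 and 8.35 in untreated colitis, where mouse 7 was the highest. The groups overlapped, as for all 10 genes (7.90% of tested genes did not), and the difference was 0.56 ± 0.18 (adjusted p = 0.107). Without untreated colitis mouse 7 it was 0.73 (adjusted p = 0.0273). Leaving out probiotic colitis mouse 8 instead moved the probiotic colitis mean of Dusp1 the other way, from 9.21 to 9.05, against 8.65 in untreated colitis. The mean of Zfp36 moved from 10.13 to 9.99, against 9.60. Zfp36 differed by 0.53 ± 0.19 (adjusted p = 0.149) and Fos by 0.68 ± 0.33 (adjusted p = 0.292). Without probiotic colitis mouse 8 the difference was 0.21 for Fos and 0.19 for Atf3, and it turned negative for Fosb, at -0.08, and for Ier2, at -0.05.

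Cyclosporine colitis was set against the other colitis groups and against untreated healthy colon. Against probiotic colitis 5 genes fell, Dusp1, Ier3, Jun, Junb and Zfp36, and all 10 differences were negative. That is 5 of 10, where 23.2% of all tested genes passed and 12.0% fell. The median difference was -0.41, against 0.01 over all genes. Ier3 had 8.20, 8.02, 8.02 and 7.96 in cyclosporine colitis, against 8.60 to 9.63 in probiotic colitis. It was the 1 gene of the set whose groups did not overlap, as for 21.0% of tested genes, and it fell by 0.96 ± 0.28 (log2 change -0.96, adjusted p = 0.0191).

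Dusp1 had 8.76, 8.57, 8.34 and 8.27 in cyclosporine colitis, against 9.70, 9.43, 8.99 and 8.72 in probiotic colitis. The groups met at a single pair of mice, and Dusp1 fell by 0.72 ± 0.18 (adjusted p = 0.00772), or 1.65-fold. Jun had 9.85, 9.76, 9.65 and 9.52 in cyclosporine colitis, against 9.85 to 10.29 in probiotic colitis, and fell by 0.35 ± 0.11 (adjusted p = 0.0248). Junb fell by 0.46 ± 0.14 (adjusted p = 0.0253) and Zfp36 by 0.58 ± 0.19 (adjusted p = 0.0369). Without probiotic colitis mouse 8, Ier3 (-1.09, adjusted p = 0.0104) and Dusp1 (-0.56, adjusted p = 0.0232) passed, and Jun, Junb and Zfp36 did not. Without mouse 7 of the same group Dusp1 alone passed, and without cyclosporine colitis mouse 4 only Ier3 and Dusp1 did. Fos, Fosb and Atf3 had differences of 0.21, 0.40 and 0.24 without mouse 8, against -0.26, -0.26 and -0.23 with it.

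Against untreated colitis, 0 of the 10 genes passed in limma, where 13.2% of tested genes passed, 7.58% rising and 5.58% falling. At an unadjusted p under 0.05 there were 0 of the set and 4681 of all 16739 tested genes. Ier3 differed by -0.57 ± 0.28 (adjusted p = 0.199), with 7.96 to 8.20 in cyclosporine colitis inside the range of 7.78 to 9.73 in untreated colitis. Without untreated colitis mouse 6 the difference was -0.84 (adjusted p = 0.0375). Against untreated healthy colon, 0 of 10 passed, where 6.02% of tested genes passed, 2.64% rising and 3.38% falling. Before adjustment 1 of the set and 4017 of all 16739 tested genes had a p under 0.05. Jun differed by 0.23 ± 0.11 (adjusted p = 0.196) and Ier3 by 0.15 ± 0.28 (adjusted p = 0.776). The comparisons share the untreated healthy, untreated colitis or probiotic colitis arrays, so that they are not independent of one another.

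Probiotic healthy colon was set against untreated healthy colon to read the strains without DSS. In limma 0 of the 10 genes and 0.00% of all tested genes passed, and the smallest adjusted p was 0.206. Before adjustment, 1511 genes had a p under 0.05, 1 of the set among them. Dusp1 had 8.94, 8.90, 8.66 and 8.62 in probiotic healthy mice, against 8.47, 8.46, 8.35 and 8.28 in untreated healthy mice. These groups did not overlap, as for 7.07% of tested genes, and the difference was 0.39 ± 0.18 (adjusted p = 0.548). Egr1 differed by 0.41 ± 0.39 (adjusted p = 0.810).

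Probiotic colitis had the highest group mean for all 10 genes. Jun averaged 9.69 ± 0.14 in cyclosporine colitis, 10.04 ± 0.19 in probiotic colitis, 9.83 ± 0.22 in untreated colitis, 9.46 ± 0.09 in probiotic healthy and 9.46 ± 0.12 in untreated healthy mice (SD, n = 4 each). In that order of levels, probiotic and untreated colitis, untreated and cyclosporine colitis, and the 2 healthy groups did not pass the test against each other. Ier3 averaged 8.05 ± 0.11 in cyclosporine colitis, 9.01 ± 0.45 in probiotic colitis, 8.61 ± 0.81 in untreated colitis, 7.83 ± 0.30 in probiotic healthy and 7.89 ± 0.16 in untreated healthy mice. Here too no pair of neighbours in the order passed the test. For Fos, Fosb, Atf3 and Ier2 the place of probiotic colitis at the top rested on mouse 8. The other 3 mice averaged 8.43 for Fos, 6.35 for Fosb and 8.26 for Atf3, below the cyclosporine colitis means of 8.64, 6.75 and 8.50. For Ier2 they averaged 7.66, below the untreated healthy mean of 7.78.

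Ier3 deviated within groups with the acute cytokine genes, a list of 15 tested genes such as Il1b, Tnf and Cxcl5. Over the 20 arrays, the deviation of Ier3 from its group mean correlated with that of the list mean at r = 0.92 (permutation p = 0.000460, 0.0138 adjusted over 30 relations) and rho = 0.75 (permutation p = 0.00325, adjusted 0.0975), with two-sided tests of 100000 permutations within groups. Without the 2 arrays farthest from the median of the list, r was 0.78. Untreated colitis mouse 7 had both the highest Ier3 of its group, 9.73, and the highest cytokine mean, 9.16, and mouse 6 had the lowest of both, 7.78 and 6.58. In probiotic colitis, mouse 7 was highest in both, and mouse 8, highest for Fos, was lowest in both. The mean of 12 neutrophil markers moved the same way: it was 9.68 in untreated colitis mouse 7 and 6.53 in mouse 6, and 9.51 in probiotic colitis mouse 7 and 6.65 in mouse 8, in each case the group's highest and lowest. Its part in the level of Ier3 was not tested.

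**Figure D4:**
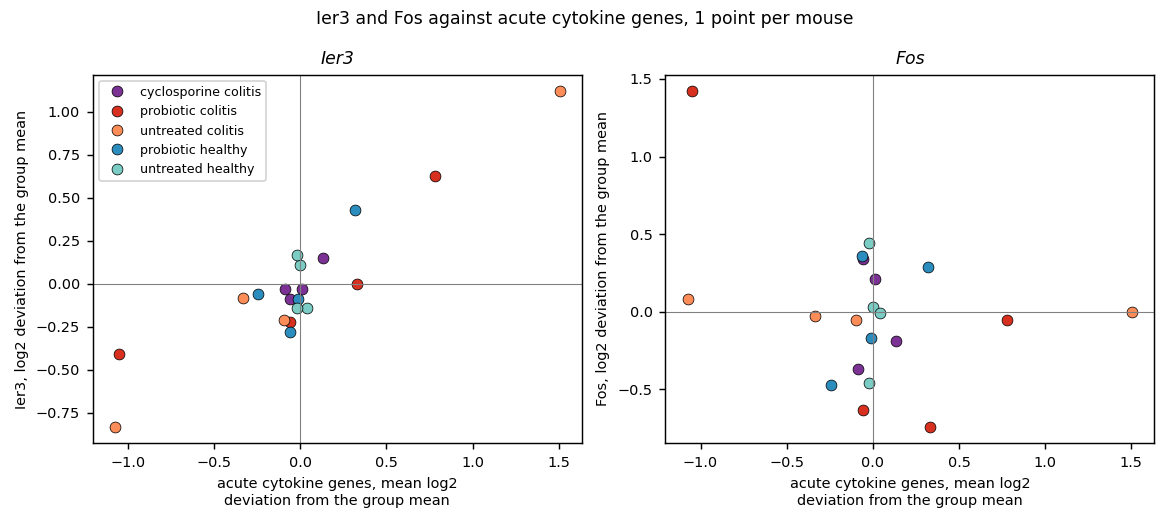
Deviation of Ier3 (left) and Fos (right) from the group mean against that of the mean of 15 acute cytokine genes, in log2 units, 1 point per mouse. Ier3 deviates with the cytokine genes (r = 0.92, rho 0.75), and Fos is at its highest in the probiotic colitis mouse with the group's lowest cytokine mean.

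The relation of Ier3 with the cytokine list thus passed after adjustment by r and not by rho. None of the other 29 relations, which set each of the 10 genes against the cytokine, heat shock and hypoxia lists, passed by either. All 30 relations were chosen after seeing the data. Fos had r = -0.34 (rho -0.13, adjusted p 0.554 and 0.937 by permutation) with the cytokine list and r = -0.01 (rho -0.17, adjusted p 0.948 and 0.802) with the heat shock list. With the hypoxia list Fos had r = -0.59 (rho -0.35, adjusted p 0.355 and 0.701), which was -0.24 without the 2 farthest arrays. Junb had the highest r with the heat shock list, 0.54 (rho 0.37, adjusted p 0.355 and 0.701 by permutation).

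Cytokine genes moved with the groups. Of 15 tested, 9 rose in untreated colitis over untreated healthy colon, Tnf by 1.51 ± 0.24 (adjusted p = 0.000175) and Il1b by 3.51 ± 0.71 (adjusted p = 0.00135), and 9 rose in probiotic colitis over probiotic healthy colon. Of all tested genes 11.7% and 13.6% rose in these comparisons. Between cyclosporine and probiotic colitis 10 of the cytokine genes fell, where 12.0% of all tested genes fell. The list mean was 6.40 to 6.62 in cyclosporine colitis, 6.99 to 8.82 in probiotic colitis, 6.58 to 9.16 in untreated colitis, 6.12 to 6.68 in probiotic healthy and 6.23 to 6.29 in untreated healthy mice. The part of cytokine signals in the levels of the 10 genes was not tested.

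Heat shock chaperones, induced by protein damage, and hypoxia genes, induced by low oxygen, were read beside the set. Of 12 heat shock genes 2 rose in untreated colitis over untreated healthy colon, where 11.7% of all tested genes rose. These were Hsp90aa1, by 0.23 ± 0.07 (adjusted p = 0.0244), and Hspa4l, by 0.28 ± 0.10 (adjusted p = 0.0351). In probiotic colitis over probiotic healthy colon 2 of 12 fell, near the 16.1% of all tested genes that fell. They were Dnajb4, by 0.24 ± 0.08 (adjusted p = 0.0265), and Bag3, by 0.27 ± 0.09 (adjusted p = 0.0304). The list mean was 8.40 to 8.77 in cyclosporine colitis, 8.40 to 8.58 in probiotic colitis with 8.58 in mouse 8, 8.46 to 8.93 in untreated colitis, 8.52 to 8.70 in probiotic healthy and 8.50 to 8.61 in untreated healthy mice. With this mean as a covariate Jun, Ier3, Zfp36 and Junb were called in probiotic colitis over probiotic healthy colon, as without it, and Dusp1 was called as well (0.52, adjusted p = 0.0483).

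Of 16 hypoxia genes 4 rose and 1 fell in untreated colitis over untreated healthy colon, among them P4ha1 (0.41 ± 0.10, adjusted p = 0.00628) and Ndrg1 (-0.43 ± 0.10, adjusted p = 0.00374). The 5 of 16 called lay near the 26.1% of all tested genes that passed. In cyclosporine over probiotic colitis 2 rose and 6 fell, where 11.3% of all tested genes rose and 12.0% fell. The list mean was 8.49 to 8.71 in cyclosporine colitis, 8.72 to 8.99 in probiotic colitis with the lowest value in mouse 8, 8.87 to 9.06 in untreated colitis, 8.70 to 8.73 in probiotic healthy and 8.66 to 8.83 in untreated healthy mice. The part of tissue handling in any of these levels was not tested.

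Relatives of these genes, other fast-responding transcription factors, include AP-1 partners and nuclear receptors. Of 21 tested, 3 rose in untreated colitis over untreated healthy colon and 1 fell, with a median change of 0.12, where 26.1% of all tested genes passed and 11.7% rose. The relatives were thus called no more often than tested genes at large. Cebpb, a factor of the acute phase response, rose by 0.86 ± 0.24 (adjusted p = 0.0123), Cebpd by 0.44 ± 0.15 (adjusted p = 0.0311) and Nr4a2, an orphan nuclear receptor, by 0.42 ± 0.14 (adjusted p = 0.0330). Klf4, a factor of differentiated epithelium, fell by 0.38 ± 0.11 (adjusted p = 0.0196). In probiotic colitis over probiotic healthy colon 4 rose and 1 fell, with Batf, an AP-1 factor of lymphocytes, at 0.50 ± 0.10 (adjusted p = 0.00114). Of all tested genes 13.6% rose and 16.1% fell in that comparison. Between probiotic and untreated colitis 0 of 21 passed, where 2.80% of all tested genes did. Between cyclosporine and probiotic colitis 1 rose and 5 fell, where 11.3% of all tested genes rose and 12.0% fell.

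Feedback regulators and further induced genes include phosphatases and inhibitors that end the response. Of 34 tested, 10 rose and 2 fell in untreated colitis over untreated healthy colon, with a median change of 0.25, against -0.03 over all tested genes. Of all tested genes 11.7% rose and 14.4% fell. Nfkbiz, a nuclear regulator of NF-kappaB targets, rose by 0.96 ± 0.17 (adjusted p = 0.000411), Ier5 by 0.50 ± 0.10 (adjusted p = 0.00114), and Pim1, a survival kinase, by 1.02 ± 0.21 (adjusted p = 0.00172). Nfil3, a basic leucine zipper factor, rose by 0.63 ± 0.14 (adjusted p = 0.00276). In probiotic colitis over probiotic healthy colon 16 rose and 1 fell, where 13.6% of all tested genes rose and 16.1% fell. Between cyclosporine and probiotic colitis 16 fell and 0 rose, where 12.0% of all tested genes fell and 11.3% rose.

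Between probiotic and untreated colitis 1 of 34 feedback genes passed, where 2.80% of all tested genes did. This was Dusp6, a phosphatase that inactivates ERK, at 0.61 ± 0.12 (adjusted p = 0.0113). It had 10.00 to 10.11 in probiotic colitis, against 9.25 to 9.70 in untreated colitis. Its 4 probiotic colitis values lay close together (SD 0.05), while Dusp1 in the same mice had an SD of 0.43.

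Upstream, 3 of 7 tested ligands of epidermal growth factor receptors rose in untreated colitis over untreated healthy colon, where 11.7% of tested genes rose. The 3 were Nrg1 by 1.00 ± 0.32 (adjusted p = 0.0267), Ereg by 0.81 ± 0.29 (adjusted p = 0.0414) and Epgn by 0.36 ± 0.13 (adjusted p = 0.0491). Of 18 tested kinases and transcription factors that act before the immediate early genes, 3 rose and 2 fell. The MAP kinase kinase Map2k1 fell by 0.34 ± 0.06 (adjusted p = 0.000657), and Elk3, a partner of serum response factor, rose by 0.55 ± 0.13 (adjusted p = 0.00312). The 5 of 18 called lay near the 26.1% of all tested genes that passed.

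Markers of several cell types moved with the same comparisons. In untreated colitis over untreated healthy colon 13 of 14 smooth muscle markers fell, with a list mean of 9.58 to 9.96 against 10.37 to 10.51, while 9 of 12 neutrophil markers and 7 of 13 macrophage markers rose. Of 10 epithelial markers 3 fell and 0 rose, and of 7 enteric neuron and glia markers 3 fell and 0 rose. T cell and B cell markers rose for 6 of 8 each. Of all tested genes 11.7% rose and 14.4% fell. In probiotic colitis over probiotic healthy colon 11 of 14 smooth muscle markers and 4 of 7 enteric neuron and glia markers fell. There 11 of 12 neutrophil, 11 of 13 macrophage, 8 of 8 T cell and 7 of 8 B cell markers rose. Fibroblast markers rose for 5 of 8 and endothelial markers for 4 of 10, while 1 of 10 epithelial markers rose and 2 fell. Of all tested genes 13.6% rose and 16.1% fell in that comparison. In probiotic over untreated colitis 11 of 13 macrophage markers rose, with a list mean of 8.69 to 9.34 against 7.78 to 8.82. There 4 of 8 fibroblast and 3 of 10 endothelial markers rose as well, where 2.13% of all tested genes rose. In cyclosporine over probiotic colitis 10 of 14 smooth muscle markers rose, and 11 of 12 neutrophil and 10 of 13 macrophage markers fell. In the same comparison 8 of 8 T cell, 7 of 8 B cell, 6 of 10 endothelial and 5 of 8 fibroblast markers fell. Enteric neuron and glia markers rose for 3 of 7, and 0 of 10 epithelial markers passed. Of all tested genes 11.3% rose and 12.0% fell. With the smooth muscle mean as a covariate, 0 of the 10 genes passed in untreated colitis over untreated healthy colon, 1 in probiotic colitis over probiotic healthy colon (Jun, 0.73, adjusted p = 0.00478) and 0 in cyclosporine over probiotic colitis. That mean itself differs between the groups, so the covariate and the group cannot be fully told apart. The part of the other cell types in the levels of these genes was not tested.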

How the data were processed

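The deposited values are log2 expression per probe set, which the authors normalised with RMA, per the submitters' processing notes; its version is not given in the sources used here. Of 41801 probe sets 29195 had values, and 22360 of these had 1 gene symbol, 1013 several and 5822 none. A probe set was kept if it exceeded 5.30, the 25th percentile, on at least 4 arrays, and the brightest on average was used where a gene had several, leaving 16739 genes. Group means were fitted over 20 arrays with limma 3.58.1 in R 4.3.3 (lmFit and eBayes, 15 residual and 4.03 prior degrees of freedom), with Benjamini-Hochberg adjustment over all genes in each of 8 comparisons and a threshold of 0.05. The labels state biological replicates. The number of arrays limits the precision.

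The 10 genes, the lists, the naming rule and the tests were chosen with earlier results of these data known. Named from the lists were the members with the smallest p (up to 4 of relatives and feedback genes in untreated colitis against untreated healthy colon, and up to 3 otherwise), and outside them the 10 genes most similar over arrays. Cytokine, heat shock and hypoxia relations, the counts per array for other lists, and values of spread and similarity without probiotic colitis mouse 8 were chosen after seeing the data. Promoter sequences are RefSeq's of GRCm38.p6, a build used for them alone; 2 genes had no entry in the table used.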

Additional observations from a re-analysis of the deposited data

Results flagged for a closer look

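In 2 of 50 groups of 4 mice examined, 1 value lay far from the other 3, its gap to the nearest, as a share of the group's range, exceeding Dixon's 95% critical value; chance alone gives about 1 in 20 such groups. Fosb had 6.79 in untreated healthy mouse 4, against 6.53 to 6.55 in the other 3 mice of the group. Atf3 had 8.32 in untreated colitis mouse 7, against 7.97 to 8.01 in the other 3.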

How the results depend on the processing

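The counts of the 10 genes called were 0 under every planned setting in probiotic healthy over untreated healthy colon, in cyclosporine colitis over untreated healthy colon and for the interaction. In untreated colitis over untreated healthy colon (main count 1) they were 2 with array weights and 0 with the replicate block, with the compared groups alone or with the smooth muscle mean as a covariate, and 0 to 1 when single mice were left out. In probiotic colitis over probiotic healthy colon (main count 4) they were 2 with the replicate block, 1 with the smooth muscle mean, and 3 to 5 when single mice were left out. In cyclosporine over probiotic colitis (main count 5) they were 3 with array weights, 1 with the replicate block, 3 without the 3 arrays that stand apart, 0 with the smooth muscle mean, and 1 to 5 when single mice were left out. In cyclosporine over untreated colitis (main count 0) there was 1 without the 3 arrays, and 0 to 1 when single mice were left out; in probiotic over untreated colitis (main count 0) there were also 0 to 1. The median SD within groups, 0.37, was 0.26 to 0.39 when single mice were left out. The animal number was taken to name a mouse within its group and not to pair mice. Over 20 pairs with the same number, deviations correlated at -0.19 to 0.43, with 5 over 0.1. No pairs with different numbers were set beside them, so these values cannot show whether the numbers pair mice.

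Some genes that did not pass changed direction. In untreated colitis over untreated healthy colon, the smooth muscle mean gave 0.17 for Fos, 0.46 for Fosb, 0.07 for Atf3, 0.08 for Ier2 and -0.00 for Zfp36, the heat shock mean gave -0.05 for Junb and -0.09 for Zfp36, and the replicate block gave 0.01 for Fosb and -0.01 for Zfp36. In probiotic colitis over probiotic healthy colon, Fosb had -0.05 with array weights and with the replicate block, and Ier2 had -0.01 with the block; without the 3 arrays Fos had -0.01, Fosb -0.27, Atf3 -0.06 and Ier2 -0.02. In probiotic over untreated colitis Fosb had -0.13 without the 3 arrays, and Ier2 had -0.02 without them and -0.03 with the replicate block. In cyclosporine over probiotic colitis, Fos, Fosb and Atf3 had 0.14, 0.25 and 0.10 with array weights, 0.15, 0.28 and 0.03 with the replicate block, and 0.21, 0.40 and 0.24 without the 3 arrays. With single mice left out, the ranges that crossed 0 were -0.45 to 0.24 for Atf3, -0.51 to 0.21 for Fos and -0.55 to 0.40 for Fosb in cyclosporine over probiotic colitis, and -0.06 to 0.63 for Atf3, -0.01 to 0.71 for Fos, -0.27 to 0.68 for Fosb and -0.02 to 0.22 for Ier2 in probiotic colitis over probiotic healthy colon. They were also -0.08 to 0.87 for Fosb and -0.05 to 0.20 for Ier2 in probiotic over untreated colitis, and -0.03 to 0.20 for Egr1, -0.07 to 0.15 for Junb and -0.10 to 0.19 for Zfp36 in untreated colitis over untreated healthy colon. The causes were not tested. Of the gene values under alternatives, 910 kept direction and side of the threshold, 47 no longer passed, 9 newly passed and 42 changed direction. Signal over background limits dim genes such as Fosb and Egr1, whose group means lie nearest the filter level.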
